A study of Mus musculus with 2 samples.

Results

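The cells described here were 2546 of the 16453 droplets kept from 2 single-cell RNA libraries of mouse back skin epithelium at postnatal day 1 (P1), chosen because they held RNA of Dcn (decorin, a small proteoglycan of the extracellular matrix), Dlx4 (a homeobox transcription factor) and Cldn10 (a claudin of tight junctions). For every droplet with 2000 to 60000 unique molecular identifiers (UMIs, each counting 1 captured RNA molecule), 1000 to 8000 genes and at most 20% mitochondrial UMIs, the UMIs of Dcn, Dlx4 and Cldn10 were summed as F, and those of Myb, Gfra3 and Eda as E. A member had an F of at least 4 that was no smaller than its E, fewer than 2 Shh UMIs, fewer than 5 UMIs of Col1a1 and Col1a2 together, and fewer than 20 UMIs of the inner root sheath keratins Krt71, Krt25, Krt27 and Krt73 per 10000. These values chose the members, so the levels of the named genes are given as descriptions.

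Each genotype was represented by 1 library, WT and PADI4 cKO, both untreated and both in batch 1. Cells of both libraries were sorted for tdTomato, the Ai14 reporter, which is expressed once K14-Cre has acted and so marks descent from Krt14-expressing epithelium. The paper later took out fibroblasts and melanocytes, so not every sorted cell was a keratinocyte. The dermal fraction with the growing hair follicles (HFs) was used after the epidermis had been peeled off. In the PADI4 cKO, the same Cre acted on the Padi4 fl/fl allele. The number of animals per library was not given. Of the WT members, 24.2% held UMIs of Xist and none of Y-linked genes and 62.1% held the reverse, so that cells of both sexes were present, whereas 97.5% of the members of the other library held Xist alone. Genotype and this difference in sex cannot be told apart in the full comparison, and the main differences between the libraries are therefore also given for the 360 WT and 1033 cKO-labelled members with Xist alone.

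The hair bulb matrix is the pool of dividing epithelial cells around the dermal papilla, from which the medulla, cortex and cuticle of the hair shaft and the layers of the inner root sheath (IRS) are made. Wnt signalling through LEF1 and BMP signalling, with the MSX and HOXC13 factors, are known to steer matrix cells into the shaft, and the shaft lineages then switch on hair keratins and keratin-associated proteins. Dcn is best known from fibroblasts, and its detection in epithelial droplets was therefore set beside fibroblast markers below.

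The label rested on the markers Dcn, Dlx4, Cldn10, Kit and Bmp4, of which the first 3 belonged to the rule. Kit, the receptor for stem cell factor, was at 14.9 CPM (UMIs of the gene scaled to a total of 1000000 UMIs summed over the droplets) in the WT members and 5.97 CPM in all other WT droplets, and at 12.1 and 5.40 CPM in the library labelled PADI4 cKO. Kit was thus more than 2-fold higher in the members of both libraries. A minority of members held it, however, with a Kit UMI in 15.2% and 13.8% of them, against 4.06% and 4.59% of the other droplets. Bmp4, a ligand of the BMP pathway, was at 77.9 against 41.4 CPM and at 84.6 against 51.4 CPM, which is 1.88-fold and 1.64-fold. Bmp4 was higher still, at 135 and 145 CPM, in the droplets with at least 2 Shh UMIs, so that it did not single out the members.

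The members made up 17.2% of the WT droplets (1487 of 8661, exact Clopper-Pearson 95% interval 16.4 to 18.0%) and 13.6% of the droplets of the library labelled PADI4 cKO (1059 of 7792, 12.8 to 14.4%). Among droplets with Xist alone the shares were 16.1% and 13.5%. All intervals cover counting error and not the difference between animals, and with 1 library per genotype no test of a difference was possible. The median member held 16046 UMIs in the WT and 18763 in the other library, against 13635 and 15152 in the other droplets. Scrublet scores marked 7.33% and 6.42% of the members as doublets, against 3.60% and 3.85% of the other droplets. The libraries shared 17 cell barcodes, 2 of them between members.

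Decorin RNA dominated the selection. Of all F UMIs in the members, 85.8% came from Dcn, 12.1% from Cldn10 and 2.10% from Dlx4, and F ran from 4 over a median of 28 to 217. Of 5281 droplets with an F of at least 4, 1281 were lost to the condition on E and 1663 to the limit on Shh, with some lost to both. The members were therefore what was left of a wider set of Dcn-containing droplets. In droplets that met the other limits and held at least 6 UMIs of E and F together, the share of F was spread over the whole range, with the highest shares at its ends. A share of F under 0.1 was seen in 24.4% of these WT droplets and a share over 0.9 in 14.5%. Between 0.4 and 0.5 fell 4.2%, with droplets of equal sums counted in the next range up.

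**Figure D1:**
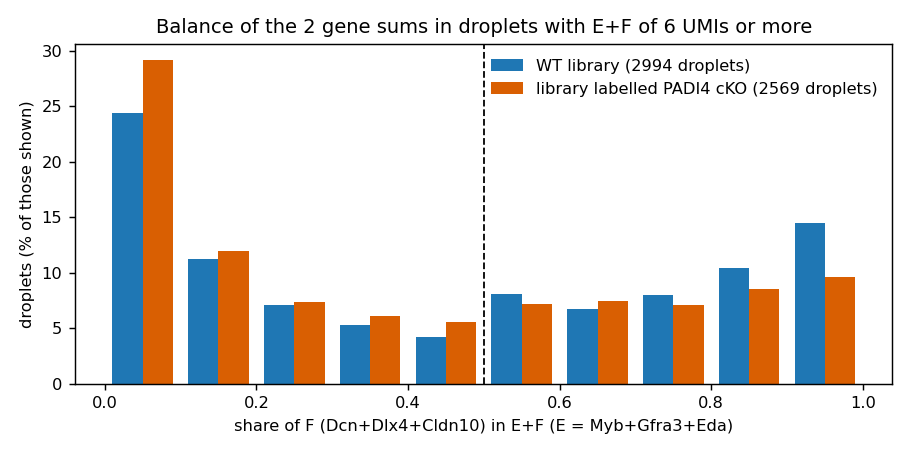
Share of F (Dcn, Dlx4 and Cldn10 UMIs) in the sum of E and F on the x axis, from 0 to 1 in steps of 0.1, and the percentage of droplets on the y axis, for droplets with at least 6 UMIs of both sums that met the limits on Shh, collagen and inner sheath keratins (2994 WT, 2569 cKO-labelled). The dashed line marks equal sums, and droplets with equal sums were counted in the bar to its right. In both libraries the lowest bar lies just left of the line, at 4.2% and 5.5%, so any ties add to the step there.

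Members just inside the limits were not like the rest. The 168 WT members with an F of 4 or 5 held 646 CPM of Krt15, a keratin of the outer root sheath, and 434 CPM of Lef1, and the 341 WT droplets just outside, with an F of 2 or 3, held 1210 and 271 CPM. In the library labelled PADI4 cKO the same keratin was at 389 CPM in the 76 droplets inside and 669 CPM in the 240 outside. At the balance of E and F, members whose E came within 1.5 times of F (222 and 171) and droplets whose E exceeded F by up to 1.5 times (118 and 135) held similar Msx1, 215 and 229 CPM inside and 192 and 197 CPM outside. Krt35, a keratin of the hair shaft, was at 169 and 155 CPM inside and at 349 and 318 CPM outside.

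Each gate gene was also higher in droplets that the other 2 had chosen. Dcn was 2.77-fold (WT) and 2.71-fold (cKO-labelled) higher in droplets chosen by Dlx4 and Cldn10 than in the rest, Dlx4 was 2.51-fold and 2.76-fold higher in those chosen by Dcn and Cldn10, and Cldn10 was 3.55-fold and 3.34-fold higher in those chosen by Dcn and Dlx4. In these selections the sum of the 2 choosing genes had to reach 3 UMIs and be no smaller than E, and the other conditions of the rule were kept. Dcn is encoded on chr10:97479609-97518143 (+ strand), Dlx4 on chr11:95140447-95146263 (- strand) and Cldn10 on chr14:118787908-118875489 (+ strand) of GRCm38, so the 3 genes lie on separate chromosomes.

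Fibroblast markers were low in the members, whose selection had a limit on collagen UMIs. Col3a1, the fibrillar collagen that dermal fibroblasts make in bulk and that the rule did not use, was at 0.23 and 0.14 CPM in the members, against 11.4 and 13.7 CPM in the other droplets. All 5 compared dermal fibroblast genes (Col3a1, Col5a1, Fbn1, Postn, Sparc) were at least 2-fold lower in the members of both libraries, the summed level of the 12 listed genes was 61.9 and 34.8 CPM against 175 and 150 CPM, and Mfap5 and Dpt had no UMI in any member. The limit on Col1a1 and Col1a2 took out collagen-rich droplets from the members but left them among the others, which bears on this contrast. In the mirror selection described below, which met the same limit, Col3a1 was at 0.445 and 0.304 CPM, and the members were lower by a log2 ratio of -0.86 and -0.92, under 2-fold. Among dermal papilla genes, Alx4 and Fgf10 had no UMI in the members, and the listed genes summed to 61.2 and 84.5 CPM against 81.7 and 100 CPM. Melanocyte genes summed to 89.1 and 94.4 CPM against 127 and 129 CPM, with none of the 3 compared genes 2-fold apart. Endothelial genes summed to 16.7 and 16.6 CPM against 14.3 and 15.8 CPM, slightly higher in the members, although Kdr and Cldn5 were at 0. Immune genes summed to 1.33 and 0.529 CPM against 0.916 and 1.08 CPM, with Ptprc, Lyz2, Tyrobp and C1qa at 0. The 1 endothelial and 1 erythroid gene compared were not 2-fold apart, and no immune gene was abundant enough to compare.

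RNA released into the droplet fluid was also measured. In droplets with at most 100 UMIs, taken as empty, Dcn was at 680 and 666 CPM. If hemoglobin RNA in the cells is taken as wholly free, free RNA makes up at most 11.97% of the UMIs of a WT droplet and 2.91% of a cKO-labelled one, which would give a median member 1.31 and 0.364 Dcn UMIs. Col3a1 stood at 1.08% and 0.532% of its level in the empty droplets. Dcn had a UMI in 99.3% and 98.8% of the members, and in 83.0% and 81.6% after each droplet had been thinned to 2000 UMIs. In the 32 WT droplets rich in the epidermal keratins Krt1 and Krt10, a cell type that should lack decorin, 15.6% had a Dcn UMI (5.28 to 32.8%, median depth 12047.5 UMIs), and after thinning 0 of 32 did (up to 10.9%).

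Across 11680 genes outside the rule with enough UMIs, 72 were at least 2-fold higher in the members than in all other droplets in both libraries (0.616%), and 828 were at least 2-fold lower (7.09%). The genes were compared where the level over all droplets gave an expectation of at least 50 member UMIs in each library. The median log2 ratio over all of them was -0.07 in both libraries. The other droplets held many cell types, and the members were compared with all of them at once.

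Krtap8-1, a keratin-associated protein of the hair shaft, was furthest above the other droplets, with 31.6 against 4.58 CPM in the WT and 24.4 against 2.55 CPM in the other library, a log2 ratio of 2.79 (95% interval 2.62 to 2.95) and 3.26 (3.05 to 3.47). It was carried by few cells: 13.4% of the members of each library had a UMI, and the 5 richest droplets held 17.8% and 25.8% of its UMIs. Ednra, a receptor for endothelin, was at 67.9 against 13.5 CPM and at 63.4 against 11.6 CPM, and 25.2% and 23.5% of the members held it, against 5.02% and 4.93% of the other droplets. Gpnmb, a membrane glycoprotein best known from melanocytes and macrophages, was at 50.4 against 9.31 CPM and at 28.0 against 5.91 CPM. For 15 of the 25 leaders the 5 richest droplets held under 10% of the UMIs in both libraries. Besides Krtap8-1, 1 leader passed 20% in a library, Csmd1, with 49.3% and 86.3% of its UMIs in 5 droplets.

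**Figure D2:**
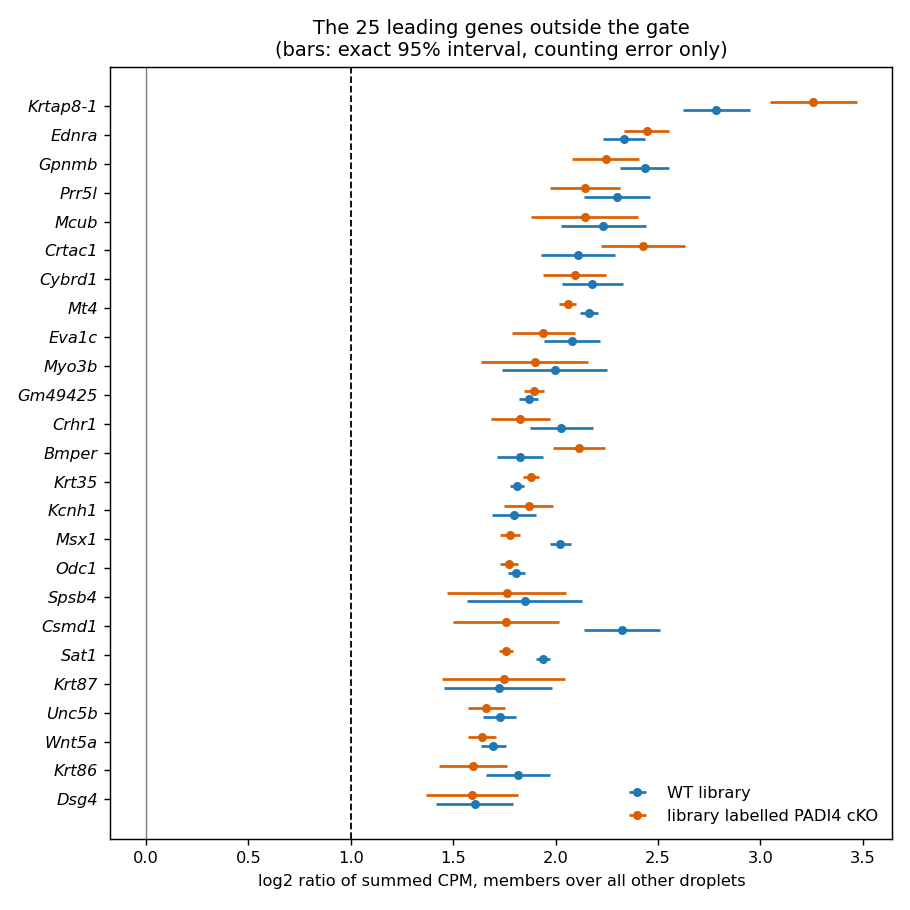
Log2 ratio of summed CPM in the members over all other droplets on the x axis for the 25 leading genes outside the rule, with 1 point per library and bars for the exact 95% interval of counting error. The dashed line marks a ratio of 2, and all 25 genes lie beyond it in both libraries, from Dsg4 (1.61 and 1.59) to Krtap8-1 (2.79 and 3.26).

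Metallothioneins, small proteins that bind zinc and copper, were among the most abundant RNAs that set the members apart from all other droplets together. None of Mt1, Mt2 and Mt4 was at least 2-fold apart from the droplets with at least 2 Shh UMIs in both libraries. Mt4, the form known from stratified epithelia, was at 336 against 74.9 CPM and at 388 against 93.1 CPM, with log2 ratios of 2.16 and 2.06. Mt1 was at 2327 against 992 CPM and at 2142 against 972 CPM, and Mt2 at 1590 against 629 CPM and at 1488 against 650 CPM. Thus 3 of the 3 metallothioneins that were abundant enough to compare were at least 2-fold higher in both libraries, although Mt1 and Mt2 were widely expressed and Mt4 was not. Mt3 lies between them in the genome and was too rare to compare, at 2.22 against 0.548 CPM in the WT and 1.39 against 0.753 CPM in the other library (log2 ratio 0.91, under 2-fold). Together the 4 genes span 43.1 kb of chromosome 8 on the + strand.

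Since these neighbouring genes were higher together, the 250 bases before the start that RefSeq gives each compared gene (GRCm38.p6, + strand) are shown, with every match to the metal response element core, searched as TGCACNC or TGCGCNC on either strand, in capitals. The windows are chr8:94178839-94179088 for Mt1, chr8:94172368-94172617 for Mt2 and chr8:94136954-94137203 for Mt4.
Mt1: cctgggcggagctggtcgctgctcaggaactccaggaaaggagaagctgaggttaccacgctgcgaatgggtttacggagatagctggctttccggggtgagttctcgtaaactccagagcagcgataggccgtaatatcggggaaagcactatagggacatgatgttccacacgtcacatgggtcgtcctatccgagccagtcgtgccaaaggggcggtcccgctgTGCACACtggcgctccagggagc
Mt2: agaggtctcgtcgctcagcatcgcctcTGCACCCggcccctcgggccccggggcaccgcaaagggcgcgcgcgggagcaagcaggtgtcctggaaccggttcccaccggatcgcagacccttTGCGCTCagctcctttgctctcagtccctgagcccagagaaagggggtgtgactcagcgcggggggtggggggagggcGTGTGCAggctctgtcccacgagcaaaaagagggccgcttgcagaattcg
Mt4: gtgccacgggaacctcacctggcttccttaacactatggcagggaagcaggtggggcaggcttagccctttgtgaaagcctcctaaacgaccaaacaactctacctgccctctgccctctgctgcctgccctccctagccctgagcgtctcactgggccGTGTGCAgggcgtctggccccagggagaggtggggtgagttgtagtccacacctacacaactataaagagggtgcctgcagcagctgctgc
The Mt1 window held 1 match, the Mt2 window 3 and the Mt4 window 1. GENCODE starts Mt1, Mt2 and Mt4 at other positions (94179082, 94172664 and 94137197), so the windows need not cover like parts of the promoters. Matches beyond the windows were not counted. Of 32851 windows of the same length before the starts of 27025 genes, 21.4% held at least 1 match and 1.26% at least 3. A match is a run of letters and not a shown binding site, and a 3′ library does not tell which start was used.

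Hair shaft keratins were higher in the members. Of 4 compared, Krt35, Krt86 and Krt87 were at least 2-fold higher in both libraries and none was lower. Krt35, a type I keratin of the shaft cuticle and cortex, was at 444 against 127 CPM and at 443 against 120 CPM. Krt87 was at 8.50 against 2.58 CPM and at 7.40 against 2.20 CPM. Gm49425, an annotated gene on chr15:101515920-101517261 (- strand) within the hair keratin cluster whose record carries a tag for an error in the reference genome, was at 274 and 285 CPM in the members, with log2 ratios of 1.87 and 1.90. Dsg4, the desmosomal cadherin of the hair shaft, was 1 of 17 adhesion genes compared and the 1 that was 2-fold higher, at 15.6 against 5.14 CPM and at 12.4 against 4.11 CPM. Of 2 compared keratin-associated proteins, Krtap8-1 was higher and Krtap17-1 lower. The medulla list split likewise, with Mt4 and Krtap8-1 higher, Barx2 lower and Foxq1 and Padi3 not 2-fold apart in both.

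Of 18 compared transcription factors of the shaft and sheath lineages, 2 were higher in the members (Hoxc13 and Ovol1) and 2 were lower (Prdm1 and Vdr), and 6 of 8 factors of the outer root sheath (ORS) were lower. HOXC13, which switches on hair keratin genes, had 201 against 92.5 CPM of Hoxc13 RNA in the WT and 204 against 94.2 CPM in the other library. Ovol1 was at 79.0 against 34.3 CPM and at 77.4 against 34.5 CPM. Foxn1, another regulator of hair keratins, was at 10.3 CPM in members and others of the WT. The 6 lower ORS factors were Sox9, Foxc1, Id4, Tbx1, Gata6 and Nfatc1, and none of the 8 was higher. Sox9, which marks the ORS, was at 57.3 against 253 CPM and at 41.4 against 227 CPM.

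Keratins of other layers were lower. Of 7 compared basal, outer sheath and companion layer keratins, 6 were at least 2-fold lower (Krt15, Krt14, Krt17, Krt75, Krt6a and Krt79) and none was higher, with Krt15 at 229 against 930 CPM and at 128 against 807 CPM. All 3 compared keratins of simple epithelia (Krt7, Krt8 and Krt19) were lower, and so were 4 of 7 epidermal differentiation genes (Dmkn, Krtdap, Calm4 and Krt1) and 2 of 6 sebaceous genes (Pparg and Cidea). Of 3 compared IRS genes outside the rule, Tchh (trichohyalin) was lower, whereas Krt28 and Gata3 were not 2-fold apart. Krt28 was in fact abundant in the members, at 536 against 340 CPM and at 584 against 351 CPM. The limit on the other IRS keratins thus left Krt28 RNA among the members. The contractile genes Acta2, Tagln and Myl9 were among the 15 lowest genes, with Acta2 at 2.50 against 33.2 CPM and at 2.45 against 23.3 CPM.

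In the BMP pathway, 3 of 8 response genes and 2 of 5 modulators were higher. None of 4 compared ligands and none of 5 receptors was called, where 0.616% of all genes compared were higher and 7.09% lower. Of 8 response genes, Msx1, Id2 and Msx2 were higher and Id4 was lower. Msx1, a homeobox factor of the matrix, was at 231 against 56.7 CPM and at 267 against 78.0 CPM, and 67.9% and 77.7% of the members held a UMI, against 21.6% and 27.0% of the other droplets. After thinning these shares were 29.4% and 36.2% against 7.22% and 9.46%. Msx2 was at 176 against 75.2 CPM and at 190 against 84.2 CPM. Of 5 modulators, Bmper (a secreted BMP-binding protein) and Bambi (a pseudoreceptor that blocks BMP and TGF-beta signals) were higher, and the antagonists Sostdc1 and Fst were lower. Bmper was at 46.4 against 13.1 CPM and at 44.8 against 10.4 CPM, and Fst at 65.2 against 177 CPM and at 31.7 against 107 CPM.

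In the Wnt pathway, Wnt5a was the 1 ligand of 10 that was higher, at 143 against 44.1 CPM and at 132 against 42.4 CPM, and Wnt16, Wnt5b, Wnt11 and Wnt7b were lower. Lef1, the nuclear partner of beta-catenin that marks the shaft progenitors, was at 913 against 319 CPM and at 929 against 359 CPM, and was found in 92.8% and 95.1% of the members against 45.7% and 49.5% of the other droplets. The Wnt inhibitor Notum was also higher, with log2 ratios of 1.12 and 1.15. Of the 17 compared response genes and modulators, Tcf7l1, Tcf7l2, Sfrp1 and Lgr5 were lower. Tcf7l1, the TCF of ORS stem cells, was at 64.1 against 245 CPM and at 56.7 against 224 CPM. The Wnt target Axin2 was not 2-fold apart, at 56.0 against 36.3 CPM and at 58.1 against 37.6 CPM.

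The other pathways gave lower genes and, apart from Kit and Ednra, no higher ones. Of the 6 compared Kit and endothelin genes, Kit and Ednra were higher, and the ligand Edn2 and its processing enzyme Ece1 were lower. The Hedgehog list had no higher gene and 3 of 9 lower (Hhip, Gas1 and Boc), and the target Ptch1 was at 384 against 477 CPM and at 449 against 551 CPM. Of 9 TGF-beta genes 7 were lower, of 3 GDNF family genes 3, of 11 Slit, Robo and semaphorin genes 5, and of 6 FGF genes 2 (Fgfr1 and Spry4). Over all genes compared, 0.616% were higher and 7.09% lower, so few calls could come from lists this short. None of 11 Notch genes, 5 ectodysplasin receptor genes, 7 Myc family genes, 8 D cyclins and CDK inhibitors or 3 other Dlx genes was called in either direction. Dlx3, a hair shaft regulator in the same family as Dlx4, came closest, at 159 against 82.0 CPM and at 181 against 90.1 CPM. Cgn (cingulin) was the 1 of 9 tight junction genes that was higher, and Bgn, the nearest relative of decorin, was the 1 of 4 proteoglycan genes that was lower, at 29.7 against 90.8 CPM and at 33.1 against 85.5 CPM.

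Against the mirror selection, droplets whose E was at least 4 and exceeded F under the same limits (1921 WT and 1867 cKO-labelled), 120 of 11486 genes were at least 2-fold higher in the members (1.04%) and 597 were lower (5.2%). The polyamine enzyme Sat1 was at 521 CPM in the WT members and 81.1 CPM in the mirror droplets, and at 496 and 69.3 CPM in the other library. Mt4, Krt35, Msx1, Odc1, Lef1 and Krtap8-1 were higher here too, and Slit3, Ret and Lgr5 lower. Bmp4, at 26.6 and 34.6 CPM in the mirror droplets, was at least 2-fold higher in the members than there. Kit was not, at 8.13 and 9.11 CPM.

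Against the droplets with at least 2 Shh UMIs (1052 and 1216), the members differed in few genes. Of 11285 genes, 26 were at least 2-fold higher in the members (0.23%) and 93 lower (0.824%). Lef1 was at 903 and 969 CPM there, close to its level in the members. Krtap8-1, Ednra, Krt35, Kit, Bmper, Gpnmb and Dsg4 were 2-fold higher in the members than in the Shh droplets, with Ednra at 26.4 and 24.9 CPM and Krt35 at 201 and 201 CPM there. Bmp6 was at 7.64 and 7.45 CPM in the members and 1.58 and 0.791 CPM in the Shh droplets. Several secreted signals ran the other way. Bmp2 was at 31.9 and 30.1 CPM in the members and 125 and 129 CPM in the Shh droplets, and Wnt10b at 32.0 and 35.7 CPM and 97.9 and 100.2 CPM. Edar, the ectodysplasin receptor, was at 106 and 116 CPM and 213 and 242 CPM, and Sp5 and Frem1 were also lower in the members. Dcn, which the rule used, was at 1883 and 1878 CPM in the Shh droplets and 1667 and 1784 CPM in the members (both genes were used in choosing the sets).

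The members varied among themselves along F. They were divided at 5, 10, 20 and 30 F UMIs per 10000 into 5 ranges, with 235, 242, 379, 263 and 368 WT members and 184, 132, 268, 189 and 286 members of the other library. Krt15 was at 525 and 313 CPM in the lowest range and 27.8 and 30.4 CPM in the highest, and Krt14, Krt17, Sox9 and Lgr5 were likewise highest at low F. Krt35 peaked between 5 and 10, at 894 and 860 CPM, and stood at 125 and 104 CPM in the highest range, and Foxn1 had the same shape. Krtap8-1 peaked in the middle ranges, at 56.8 CPM in the WT (10 to 20) and 45.1 CPM in the other library (20 to 30). Lef1 was at 403 and 422 CPM in the lowest range and 1116 and 1123 CPM in the highest. Kit went from 3.34 and 2.02 CPM to 23.9 and 18.3 CPM, and Mt1 from 907 and 852 CPM to 3187 and 2769 CPM. The marker Bmp4 went from 33.4 and 36.8 CPM to 110 and 108 CPM. The ORS keratins, Krt35 and the marker genes were thus highest in different ranges of F, the sum that the rule itself used.

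**Figure D3:**
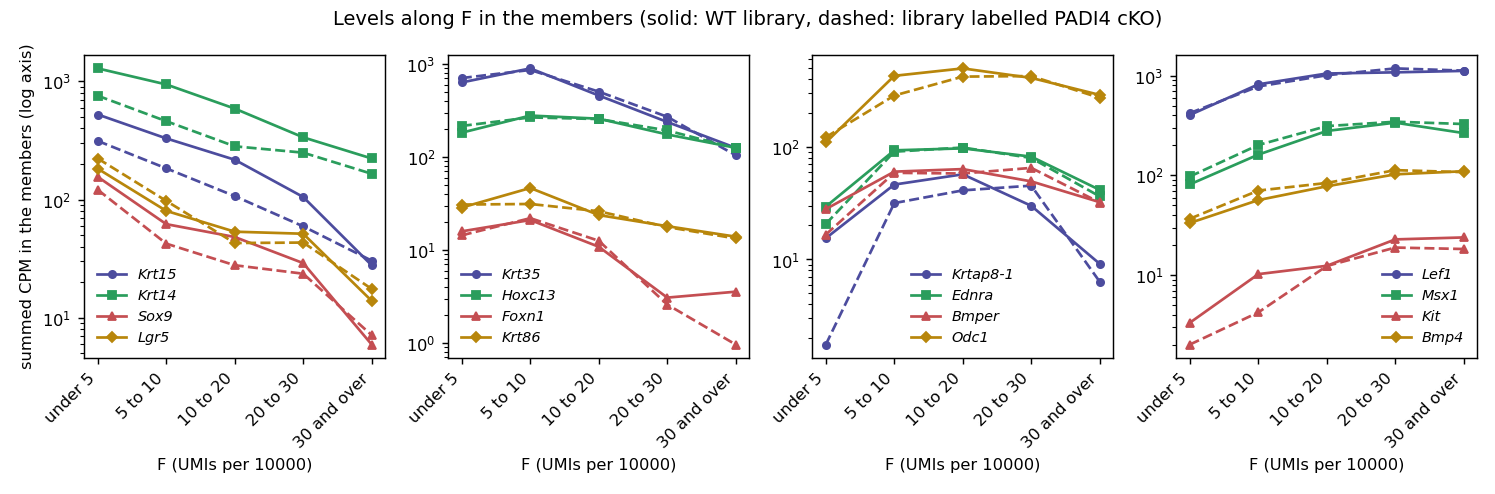
Summed CPM of 16 genes on a log y axis against F in UMIs per 10000 on the x axis, in 5 ranges of members, with solid lines for the WT library and dashed lines for the library labelled PADI4 cKO. Krt15, Krt14, Sox9 and Lgr5 are lower at higher F, Krt35 peaks at 5 to 10, Krtap8-1 in the middle, and Lef1 and Kit are highest in the upper ranges.

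Which of the 3 genes a member held divided it in the same way. All 3 genes were present in 585 WT and 450 cKO-labelled members, Dcn and Cldn10 in 516 and 370, Dcn and Dlx4 in 69 and 42, and Dcn alone in 306 and 184. The members with Dcn alone held 1777 and 754 CPM of Krt14 and 300 and 292 CPM of Lef1, against 343 and 256 CPM of Krt14 and 1113 and 1098 CPM of Lef1 where all 3 genes were present. Their Msx1 was at 44.4 and 39.6 CPM, against 313 and 339 CPM. Decorin on its own, in 20.6% and 17.4% of the members, thus went with ORS keratins rather than with the genes that led the whole set.

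A minority of members was rich in shaft RNA. Shaft keratins made up at least 20 UMIs per 10000 in 109 WT and 70 cKO-labelled members, with Krt35 at 4315 and 5406 CPM and Hoxc13 at 783 and 923 CPM. Mki67, a gene of dividing cells, was at 191 and 61.1 CPM in these and 567 and 525 CPM in the remaining members. In 30 and 23 members Krtap8-1 and Mt4 together reached 20 UMIs per 10000, with Lef1 at 1674 and 1798 CPM and Mki67 at 87.8 and 175 CPM. Kit was at 2.42 and 3.88 CPM in the members rich in shaft keratins, below its level of 15.7 and 12.5 CPM in the rest. The values in the members rich in shaft keratins rest on very few Kit UMIs.

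Most members were assigned to S or G2/M. Phase scores placed 21.0% of the WT members in G1, 33.6% in S and 45.4% in G2/M, against 41.2%, 24.8% and 34.0% of the other droplets. In the library labelled PADI4 cKO the shares were 16.9%, 40.2% and 42.9%, against 39.6%, 32.6% and 27.8%. After thinning to 2000 UMIs, G1 took 23.1% and 19.2% of the members and 42.5% and 42.0% of the other droplets. The genes behind the scores differed little on the summed scale. None of 42 S phase genes and none of 52 G2 and mitosis genes was 2-fold apart from the other droplets, and the summed S phase level was 4263 against 3640 CPM and 4765 against 4122 CPM. The Shh droplets were assigned to G1 about as rarely, at 17.1% and 17.5%, and the mirror droplets more often, at 30.04% and 27.2%. None of 18 ribosome biogenesis genes or 76 ribosomal proteins was called, and 1 of 17 dissociation response genes was lower (Hspb1). Of all genes compared, 0.616% were higher and 7.09% lower, so these counts do not set the lists apart from genes at large.

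**Figure D4:**
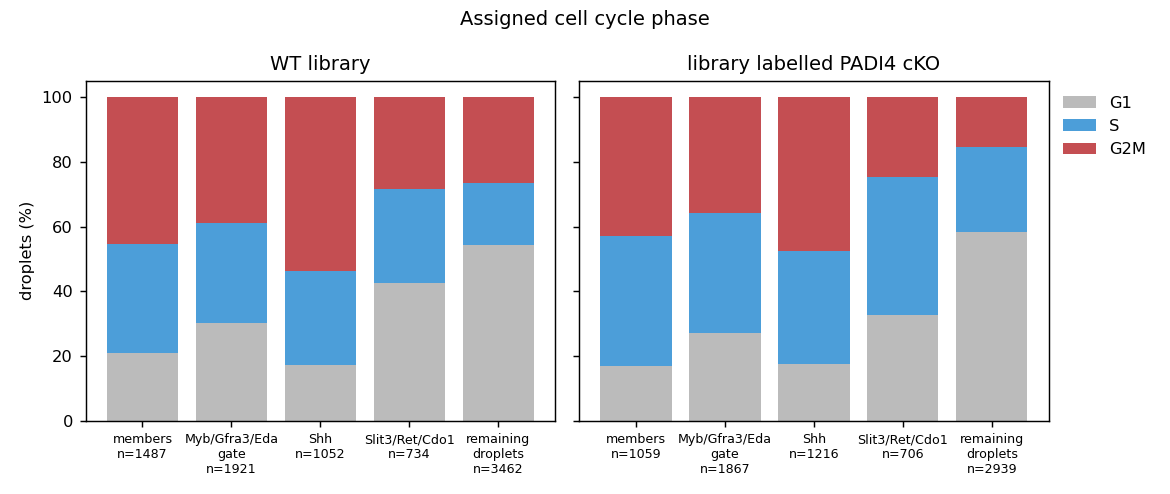
Percentage of droplets on the y axis assigned to G1, S and G2M, stacked, for the members, the mirror selection on Myb, Gfra3 and Eda, the Shh droplets, the Slit3/Ret/Cdo1 droplets and the remaining droplets of each library. G1 takes 21.0% and 16.9% of the members, close to the Shh droplets and below the other 3 sets.

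Padi4, the targeted gene, did not set the libraries apart in the members. It had 34 UMIs in the WT members and 29 in those labelled PADI4 cKO, 1.33 and 1.39 CPM, a log2 ratio of 0.08 (-0.69 to 0.83). A UMI was found in 2.08% and 2.46% of the members, against 0.906% and 0.817% of the other droplets. UMIs from a 3′ library can come from a transcript whose floxed part is missing, so these counts check the label only in part, and the second library is named here by its label. Padi3, the related enzyme of the shaft, was at 8.31 CPM in the WT members and 4.90 CPM in the cKO-labelled ones (log2 ratio -0.76), with a ratio of -0.53 (-1.06 to 0.05) among Xist-only members, and Padi2 had 0 and 1 UMIs.

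Between the libraries, 120 of 11526 genes compared within the members had a log2 ratio above 0.5, cKO-labelled over WT (1.04%), and 447 one below -0.5 (3.88%), with a median of -0.02 over all genes. Restricted to members with Xist alone, 251 of 10486 genes were above and 205 below. The Xist-only sets were unequal, with 5740488 UMIs in the WT and 20348563 in the cKO-labelled members, so that a gene passed the minimum on UMIs of both sets together mostly through the cKO-labelled one. Lef1 had a log2 ratio of 0.03 in all members and 0.02 in Xist-only ones, Msx1 of 0.21 and 0.14, Bmp4 of 0.12 and -0.08, and Krt35 of 0.00 and -0.54. Csmd1, most of whose UMIs sat in few droplets, had ratios of -1.08 and -1.33. Of the lists in all members, none of 8 BMP response genes, 11 Notch genes, 18 ribosome biogenesis genes, 42 S phase genes or 52 G2 and mitosis genes passed 0.5 in either direction, and among Xist-only members 1 of 11 Notch genes (Notch3) was below -0.5.

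Among the basal and outer sheath keratins and the epidermal genes, 7 were below -0.5 in the cKO-labelled members, and 3 of these 7 were so among Xist-only members. Over all genes compared, 3.88% were below -0.5 in all members and 1.95% among Xist-only members. Of 8 ORS transcription factors, Foxc1 was below -0.5 and Gata6 above 0.5 in all members, and none of 7 compared passed 0.5 among Xist-only members. Of 6 basal and outer sheath keratins 3 were below -0.5 (Krt15, Krt14 and Krt79), and of 6 epidermal genes 4 (Lor, Dmkn, Krtdap and Calm4). Krt14 was at 647 CPM in the WT members and 360 CPM in the cKO-labelled ones, a log2 ratio of -0.85 (-0.89 to -0.81). Within the WT library it was at 733 CPM in members with Y-linked UMIs alone and 346 CPM in those with Xist alone, and the ratio among Xist-only members was 0.05 (-0.02 to 0.13). Krt15 behaved alike, with -0.84 in all and 0.06 in Xist-only members, as did Krtdap (-1.70 and -0.09) and Fst (-1.04 and -0.03). Sostdc1 turned from -0.55 to 0.54. Dmkn went from -0.75 to 0.09, whereas Krt79 (-1.35 and -1.01), Lor and Calm4 were below -0.5 in both comparisons. Of the dissociation response list, 4 of 17 genes were below -0.5 in all members (Atf3, Socs3, Hspa1a and Hspa1b) and 1 was above 0.5 (Fosb, 0.62). Among Xist-only members 0 of 17 were below -0.5 and 1 was above 0.5 (Dusp1), with Hspa1a going from -0.89 to -0.31.

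Other genes appeared or grew in the Xist-only comparison. Over all genes compared among Xist-only members, 2.39% were above 0.5 and 1.95% below -0.5. The minimum on UMIs was met mostly through the cKO-labelled set, as given above. Of 7 lower proximal cup and progenitor genes, 5 were above 0.5 (Sp5, Frem1, Edar, Lgr5 and Npr3), against 1 (Sp5) in all members. Sp5, a Wnt target, had log2 ratios of 0.52 in all members and 0.79 in Xist-only ones, with an interval from 0.19 upwards on 24 WT UMIs. Ltbp1, which binds latent TGF-beta, went from 0.57 to 0.94 (0.76 to 1.13). All 3 compared shaft keratins (Krt35, Krt86 and Krt87) were below -0.5, with Krt35 at 647 CPM in the WT and 446 CPM in the cKO-labelled Xist-only members, a log2 ratio of -0.54 (-0.59 to -0.48). Gpnmb was lower in both comparisons, at -0.85 and -0.93 (-1.13 to -0.72). The Xist-only WT set comprised 360 droplets, and its makeup can differ by animal.

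**Figure D5:**
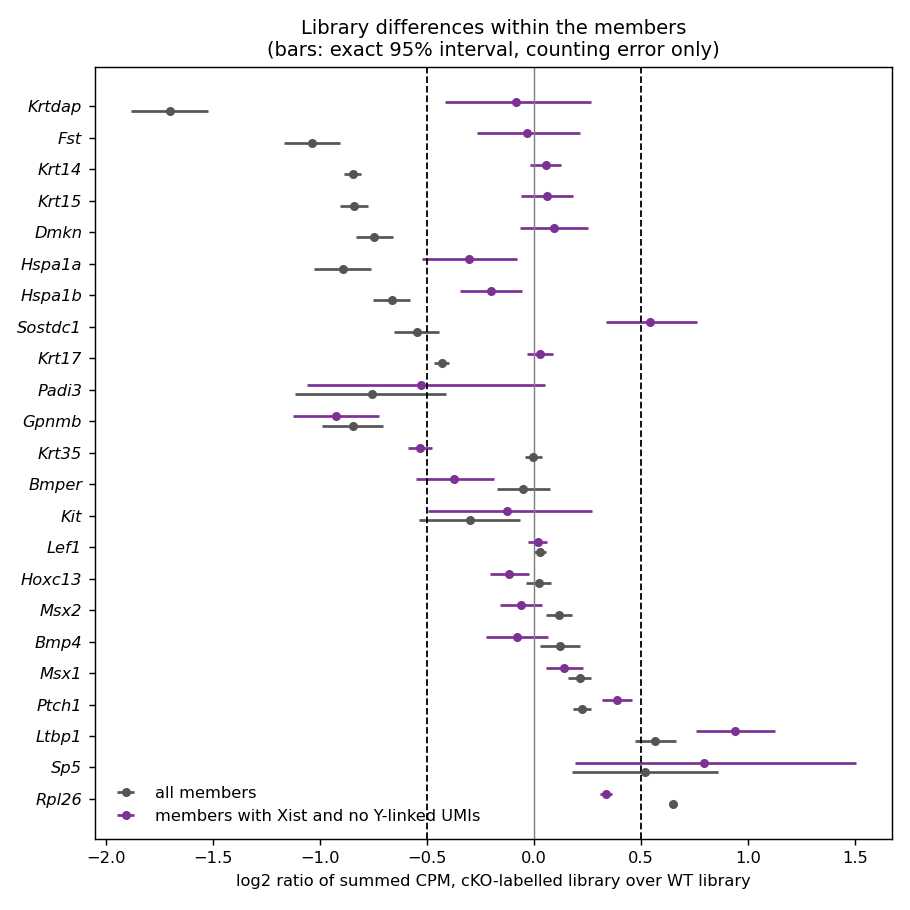
Log2 ratio of summed CPM, cKO-labelled library over WT library, on the x axis for 23 genes named for the members, in all members (grey) and in members with Xist and no Y-linked UMIs (purple), with bars for the exact 95% interval of counting error and dashed lines at -0.5 and 0.5. Krt14, Krt15, Krtdap and Fst lie below -0.5 in all members and near 0 in the Xist-only ones, while Gpnmb lies below -0.5 in both and Ltbp1 above 0.5 in both.

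Some of the largest ratios between the libraries belonged to genes that share sequence with close copies, and others to genes found in few droplets. Gm10260, annotated as protein-coding with close ribosomal protein copies, was at 13.5 CPM in the WT and 194 CPM in the cKO-labelled members (3.84), and Hmga1b, a near copy of Hmga1, at 4.87 and 26.1 CPM (2.41), and among Xist-only members the ratios were 6.60 and 2.93. Those Xist-only ratios rest on 11 and 19 WT UMIs. Within the WT library, Gm10260 was at 19.4 CPM in members with Y-linked UMIs alone and 1.92 CPM in those with Xist alone. Hmga1b was at 5.92 and 3.31 CPM in the same sets. The counts of both genes are uncertain, since they have near copies, and how reads were divided between copies was not tested. Further genes with large ratios had UMIs spread over many droplets. The 171 WT UMIs of Lrrc4c, a synaptic adhesion gene, lay in 162 droplets (-4.95). The 229 cKO-labelled UMIs of Tmem232 lay in 199 droplets (2.11). Rpl26, a ribosomal protein gene, was the 1 of 76 past 0.5, at 1757 and 2754 CPM (0.65), and its ratio was 0.34 among Xist-only members. Xist itself had a ratio of 1.96, and the Y-linked genes Eif2s3y, Uty, Kdm5d and Ddx3y were among the lowest, as was Dcpp3, whose 393 WT UMIs came from 2 droplets. The stefin genes Stfa1 and Cstdc5, at -4.75 and -4.67, belong to a family of near copies too, with ratios of -3.13 and -2.86 among Xist-only members. Once the UMIs expected from empty droplets were subtracted, the ratios were 3.32 and 4.57, the other direction. The cKO-labelled members held 9 and 33 UMIs of these genes before subtraction, and no sum was allowed to turn negative. These reversed ratios therefore rest on very few UMIs and give no size of a difference.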

How the data were processed

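The authors deposited raw UMI counts per gene and barcode, 1 matrix for each of 2 10x Genomics 3′ libraries of sorted tdTomato-positive cells, made with Cell Ranger 7.1.0 per the file headers on mm10 per the submitters' processing notes. The study corrected its matrices with CellBender, which was not done here. Droplets were filtered on UMIs, genes and mitochondrial share as described, and the deposited counts were summed over the droplets of a set. Library totals were 143938990 (WT) and 143945294 UMIs. Ratios are of summed CPM with 0.5 UMI added to each sum, with exact conditional binomial 95% intervals. Cells are not replicates and each genotype had 1 library, so no p-value was computed, and a call means at least 2-fold in both libraries, or a log2 ratio past 0.5 between libraries for genes with at least 100 member UMIs. The 0.5 follows the study.

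The members, gene lists and comparisons were chosen with earlier results of these data known. Genes were named where they were markers, where a list was about them or they were called in it, and where they were among the 25 highest or 15 lowest ratios to the other droplets or the 10 highest or lowest between libraries with an interval off 0. Gene positions came from GENCODE M21 (GRCm38), which matched 32235 of 32285 gene identifiers. Scanpy 1.11.5 scored phases. Scrublet's automatic threshold called 0.046% of the WT droplets, so that of the cKO-labelled library served for both. Droplets that met several comparison rules were counted in the first met. On simulated counts, all 4-fold changes against other droplets (11772 genes compared) and all 2-fold changes between libraries (11975 genes compared) were recovered in the right direction. Of the unchanged genes, 0% and 0.535% were called. The simulated sums held counting error only, with no variation between cells or animals, and the changes were set larger than the thresholds, so recovery says little beyond the arithmetic. The closing section gives what 18 other settings changed.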

Additional observations from a re-analysis of the deposited data

How the results depend on the processing

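Each genotype had 1 library, so no value here has an error between animals, and no paired analysis was possible because each group held 1 sample. Against the other droplets, the counts of genes at least 2-fold higher and lower (72 and 828) became 115 and 1271 with the gene minimum 5 times lower, 38 and 423 with it 5 times higher, and 41 and 405 with droplets thinned to 2000 UMIs, all of which change how many genes are compared or how precisely. The mirror selection in place of all others gave 120 higher genes. Between the libraries, 120 genes above and 447 below became 482 and 1217 with the lower minimum, 32 and 104 with the higher, 251 and 205 among Xist-only members, 200 below after thinning and 261 below in members with at least 2 of the 3 gate genes. The member share (17.2% and 13.6%) became 18.5% and 14.5% with F of at least 3, 15.2% and 12.6% with F of at least 6, 24.6% and 23.3% without the limit on Shh, 22.9% and 20.4% without the condition on E, and 13.6% and 11.1% with at least 2 gate genes. In the WT it became 19.2% with F of at least 2 per 10000 and 16.1% among Xist-only droplets. The cause of these shifts beyond the changed selection was not tested. Leaving out doublet calls gave 85 and 942 genes, matching other droplets on UMIs 69 and 668. The Padi4 ratio ranged from -0.47 (Xist-only) to 0.09.

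Of 630 ratios recomputed for 42 genes named against the other droplets, 482 kept to within the counting interval of the reported one, 148 moved and 0 reversed. Between the libraries, 234 of 276 kept, 39 moved and 3 reversed: Stfa1 (3.32) and Cstdc5 (4.57) after subtracting empty-droplet UMIs, and Dcpp1 (0.27) in members with at least 2 gate genes. The Stfa1 and Cstdc5 values rest on very few UMIs, 9 and 33 in the cKO-labelled members before subtraction, with negative sums set to 0. With the mirror selection as the others, the smaller log2 ratio of both libraries was under 2-fold for Kit (0.41), Col3a1 (-0.86), Krt6a (-0.29) and Prr9 (-0.25). The requirement of 2 gate genes, the single-library counts, the weighting to 1 makeup of F, the Xist-only member share and the doublet threshold were chosen after seeing the data.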

Other observations

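Further genes were among the 25 leaders. Odc1, which makes putrescine, was at 347 against 99.1 CPM in the WT members and other droplets and at 308 against 90.2 CPM in the library labelled PADI4 cKO, and Sat1, which acetylates polyamines for export, was at 521 against 136 CPM and at 496 against 147 CPM. The synthetic and the catabolic enzyme were thus higher in the same droplets, and both stood within 2-fold of their level in the Shh droplets (Odc1 at 290 and 253 CPM, Sat1 at 378 and 402 CPM). Along F, Odc1 was lowest in the lowest range, at 109 and 121 CPM, and highest in the WT at 10 to 20 F UMIs per 10000, at 493 CPM.

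Cybrd1, an iron reductase of the plasma membrane, was at 30.6 against 6.74 CPM and at 30.1 against 7.05 CPM. Crhr1, the receptor for corticotropin-releasing hormone, was at 26.9 against 6.59 CPM and at 31.6 against 8.90 CPM, and Unc5b, a netrin receptor, at 88.0 against 26.6 CPM and at 77.4 against 24.5 CPM. Kcnh1, a voltage-gated potassium channel, was at 50.7 against 14.6 CPM and at 46.3 against 12.7 CPM. All 4 were higher in the members than in the mirror selection by at least 2-fold in both libraries, and of these Kcnh1 was also at least 2-fold higher than in the Shh droplets of both libraries, at 22.3 and 22.9 CPM. No gene was at least 2-fold apart in opposite directions in the 2 libraries.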
